A study of Oryza sativa with 12 samples.

Results

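The genes described here are the sugar transporters of the rice leaf: the SWEET uniporters, the sucrose importers (SUT), the hexose importers around MST6, the polyol transporters, and the carriers of the tonoplast and the plastid. They were found by words in the gene name, the description or the Swiss-Prot name of the deposited table, which matched 126 genes. A level of 1 FPKM or more in 3 or more of the 12 libraries was reached by 63 of them, out of 22648 genes that did so and 39967 in all; these 63 are called the members below. Leaf RNA of a knockout of PHR2, the transcription factor that turns on many phosphate (Pi) starvation genes in rice, was compared with that of its wild type, the cultivar ZH11, in each of 2 media. The groups, with 3 libraries each, are phr2 no Pi, phr2 control, WT no Pi and WT control. Plants of both genotypes grew on diluted MS medium, a mineral salt medium. Those of the no Pi groups were moved at 3 weeks of age to this medium without Pi, and their leaves were taken on day 3. The control groups are labelled untreated, with no age or day given. The labels give neither the allele of the knockout nor whether libraries come from separate plants. Each p-value is thus set against the spread between these libraries alone, which may be technical.

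Green leaves make sucrose and export it through the phloem to tissues that cannot feed themselves. SWEET proteins let sugars pass down their gradient across a membrane, and SUT and MST/STP proteins use a proton gradient to import sucrose and hexoses into cells. Carriers of the tonoplast move sugars into and out of the vacuole, and plastid carriers let out the sugars made by starch breakdown.

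By role, the members are 13 of 26 matched SWEET genes, 3 of 7 SUT genes, 22 of 48 hexose importers, 10 of 23 polyol transporters, both tonoplast monosaccharide transporters, 5 of 9 ERD6-like genes and 3 of 4 plastid carriers. Another 2 matched genes had no role in their annotation and were not kept. The words also brought in 5 genes that are no transporters of sugar by name: the aquaporin PIP1;2, the zinc finger factor DOF7, a gene similar to the RNA-binding protein FPA, and 2 genes similar to SWEETIE of Arabidopsis. They were kept in every count, as the rule has them. Of the 63 matched genes that were not kept, 40 are listed at 0 in every library.

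Depth ranged from 10109727 to 13122430 reads recovered per library. PHR2 itself was listed at 21.4 to 29.7 FPKM in the phr2 libraries and 17.9 to 31.5 FPKM in the WT libraries, so its level does not check the genotype labels. The library labelled phr2 no Pi replicate 3 stood apart from its group: across all kept genes it was most like WT no Pi replicate 2 (Pearson r = 0.968), its mean r was 0.871 with its own group and 0.904 with the WT libraries, and it was also the nearest library of WT control replicate 3 (r = 0.950). For 42 of the 63 members (66.7%) it lay nearer to the WT no Pi mean than to the mean of the other phr2 no Pi libraries, and over all kept genes it did so for 58.4%. The counts and the values that turn on it are given with and without it. It was set apart by its likeness to WT in these same data, so leaving it out tends to lower the p-values between the genotypes. The values without it are thus no independent support for a genotype difference. The leaf list (Rubisco small subunit and chlorophyll a/b-binding genes) was detected for 19 of its 26 genes. Of the lists for other organs, 11 of 14 pollen and anther genes, 37 of 51 endosperm genes and 1 of 8 root genes were listed at 0 everywhere, and the root list summed to 3.22 to 49.0 FPKM over the libraries.

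Levels of the members spanned a wide range. FPKM divides reads by transcript length and by a size set for the library, so genes of the same library can be set side by side. This size was not the number of recovered reads. For the WT control libraries it was 0.674, 0.759 and 0.938 times that number. For all other libraries it was 0.974 to 1.21 times that number. Levels set side by side between libraries carry this scaling, and its cause was not tested. Only 4 members had a median over the 12 libraries of at least 100 FPKM, 30 had one of at least 10 FPKM, and 33 had one under 10 FPKM. MST6, a plasma membrane hexose and proton symporter, was the highest by mean over the 12 libraries, followed by its relative MST4, the polyol transporter Os07g0582400, the plastid carrier Os09g0394500 and SWEET1B. This order is not that of each genotype: in the 5 phr2 libraries other than phr2 no Pi replicate 3, Os09g0394500 averaged 234 FPKM and MST6 59.7 FPKM, below SWEET1A at 97.8 FPKM and SWEET1B at 83.7 FPKM. MST6 alone held 1.85% to 5.10% of the summed FPKM of the members in 5 phr2 libraries and 50.9% in the library labelled phr2 no Pi replicate 3, against 25.5% to 69.3% in the WT libraries. The plastid carriers were among the members that varied least. Os09g0394500, similar to the probable plastidic glucose transporter 1 of Arabidopsis, had 200, 256 and 241 FPKM in phr2 no Pi, 247, 227 and 241 FPKM in phr2 control, 188, 232 and 213 FPKM in WT no Pi and 154, 147 and 254 FPKM in WT control. Its highest library was 1.74 times its lowest, the smallest such ratio of the members detected in every library. The ratio was 2.40 for PGT, similar to the carrier that lets glucose out of Arabidopsis chloroplasts after starch breakdown, and 129 for MST6.

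**Figure D1:**
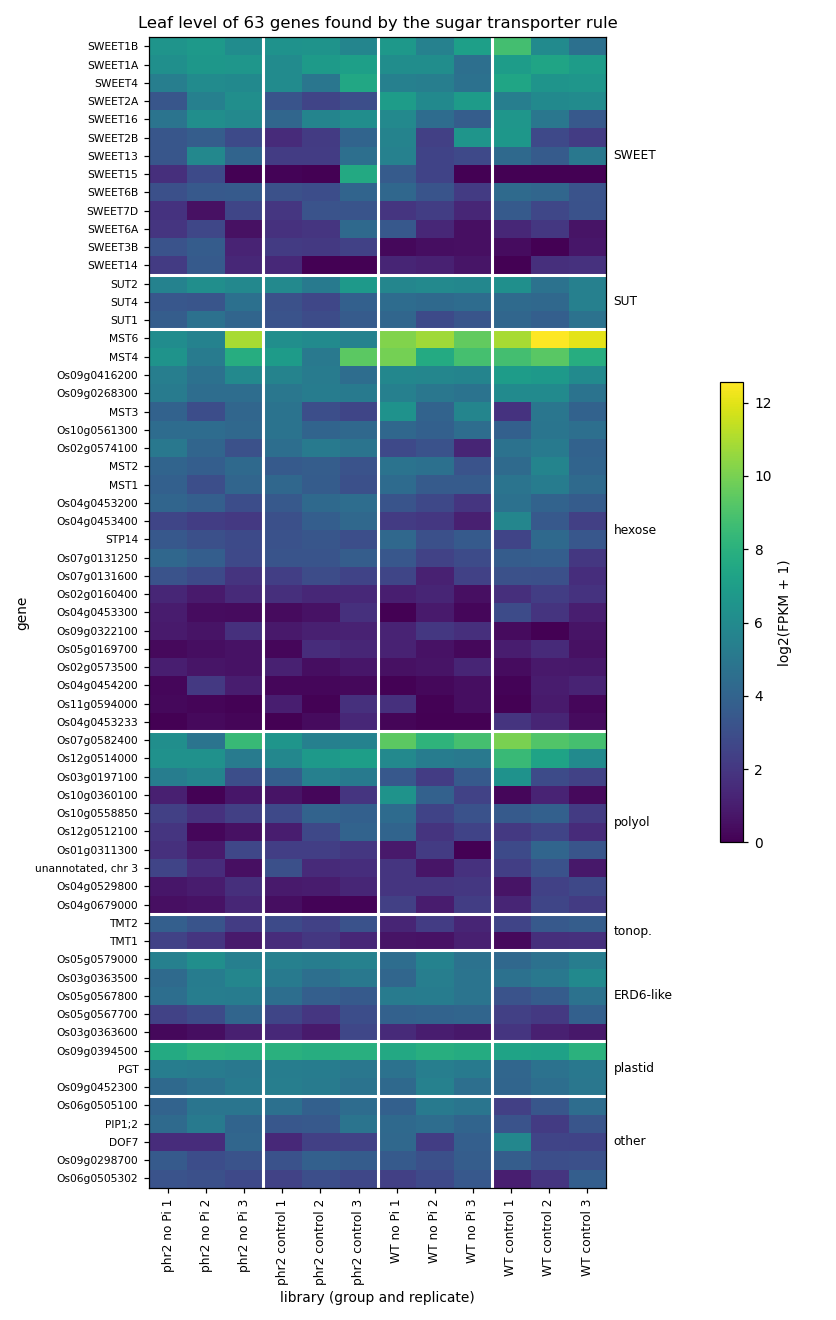
Level of each of the 63 members (rows, grouped by role and ordered by mean level within a role) in each of the 12 libraries (columns), as log2(FPKM + 1) on the colour scale. MST6 is among the brightest rows in all 6 WT libraries and in the library labelled phr2 no Pi replicate 3, and much darker in the other 5 phr2 libraries, whereas the plastid rows are even.

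The comparison of phr2 with WT asked which members depend on the genotype. MST6, Os07g0582400 and SWEET2A were lower in phr2 leaves and SWEET3B was higher, over both media. Each difference is one of mean log2(FPKM + 1), so that those of weakly expressed genes come out too small. The test was limma, a linear model that shares the spread between genes, and a gene passed when its p, adjusted after Benjamini and Hochberg over the 22648 genes, was under 0.05. Over both media 4 members passed, beside 1.22% of all genes: 1 was higher, beside 0.0574% of all genes, and 3 were lower, beside 1.17%. The higher one is SWEET3B, which reached 1 FPKM in no WT library and so was kept through its phr2 libraries alone, and nothing is read from its count. In control medium 1 member passed and was lower, beside 0.667% of all genes in either direction and 0.587% lower. Without Pi no member and no gene (0%) passed, while 10 members and 8.67% of all genes had an unadjusted p under 0.05.

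MST6 (Os07g0559700, chromosome 7, 22353362 to 22355669, minus strand, as the table gives it; the rice assembly is not stated) had 72.9, 64.3 and 46.4 FPKM in phr2 control, against 1934, 6004 and 4231 FPKM in WT control. Without Pi it had 67.8, 46.9 and 1932 FPKM in phr2, against 1170, 1708 and 735 FPKM in WT. In control medium every phr2 library was far below every WT library. Without Pi the libraries labelled phr2 replicates 1 and 2 were far below the WT libraries and replicate 3 was above them. The difference was −5.90 in control medium (SE 1.08, limma adjusted p = 0.0433, and 6.77e-05 to 0.199 over 21 alternatives), −2.62 without Pi (SE 1.08, limma adjusted p = 0.562) and −4.26 over both media (SE 0.76, limma adjusted p = 0.0410). Without the library labelled phr2 no Pi replicate 3 it was −5.90 in control medium (SE 0.45, limma adjusted p = 0.000395), −4.31 in no Pi medium (SE 0.51, limma adjusted p = 0.00778) and −5.11 over both media (limma adjusted p = 5.81e-05). That library was left out for its likeness to WT in these data, so the smaller p-values are no added evidence. The 5 other phr2 libraries averaged 59.7 ± 12.3 FPKM and the 6 WT libraries 2630 ± 2050 FPKM (SD), a WT mean 44.1 times the phr2 mean. The annotation ties MST6 to sugar supply of the developing seed. Of the 14 genes of the pollen and anther list, 11 were at 0 everywhere, MST8 among them. Only 1 was kept, Os05g0380900, which is named as a calmodulin-like protein. The list summed to 9.41 to 46.2 FPKM over the phr2 libraries and 31.7 to 296 FPKM over the WT libraries. No pollen or anther signal is read from this sum, and its part in the result was not tested. In bulk leaf RNA, fewer cells of a type and less RNA per cell cannot be told apart.

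Os07g0582400 (chromosome 7, 23582270 to 23584330, plus strand) is similar to proton and myo-inositol cotransporters and to polyol transporter 5 of Arabidopsis, which imports polyols and several sugars. It had 93.0, 43.3 and 45.5 FPKM in phr2 control and 1029, 558 and 454 FPKM in WT control. Without Pi it had 72.3, 27.7 and 355 FPKM in phr2 and 672, 290 and 462 FPKM in WT. The groups did not overlap in control medium. Without Pi the libraries labelled phr2 replicates 1 and 2 were below all WT libraries, and replicate 3 was within the WT range. The difference was −2.89 over both media (SE 0.53, limma adjusted p = 0.0420), −3.47 in control medium (limma adjusted p = 0.0573) and −2.31 without Pi (limma adjusted p = 0.541). Without that library it was −3.38 over both media (limma adjusted p = 0.000578), −3.47 in control medium (limma adjusted p = 0.00468) and −3.29 without Pi (limma adjusted p = 0.0239). The 5 other phr2 libraries averaged 56.3 ± 26.0 FPKM and the 6 WT libraries 578 ± 255 FPKM (SD).

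SWEET2A (Os01g0541800, chromosome 1, 19959667 to 19961939, plus strand) belongs to a group of SWEET proteins whose Arabidopsis member sits in the tonoplast. It had 8.71, 4.99 and 7.04 FPKM in phr2 control, against 39.9, 61.8 and 66.2 FPKM in WT control. Without Pi it had 9.31, 42.5 and 73.3 FPKM in phr2, against 123.3, 61.5 and 119 FPKM in WT. The groups did not overlap in control medium. Without Pi the phr2 libraries spread widely, and the library labelled replicate 3 reached into the WT range. The difference was −2.22 over both media (SE 0.43, limma adjusted p = 0.0431) and −2.84 in control medium (limma adjusted p = 0.0560). The difference without Pi was smaller in size than that in control medium and did not pass. Without that library the difference was −2.52 over both media (limma adjusted p = 0.00334) and −2.84 in control medium (limma adjusted p = 0.0144), and −2.20 without Pi (limma adjusted p = 0.105).

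SWEET3B (Os01g0220700, chromosome 1, 6612386 to 6613717, minus strand) was the only member higher in phr2 leaves by this test, and it was a low gene. It had 3.52, 3.17 and 4.37 FPKM in phr2 control, against 0.324, 0 and 0.699 FPKM in WT control. Without Pi it had 8.26, 11.5 and 1.36 FPKM in phr2, against 0.199, 0.384 and 0.438 FPKM in WT. Every phr2 library was above every WT library, and replicate 3 of the phr2 no Pi group was the lowest of them. It is the only member of which this held over both media, beside 0.530% of all genes. In recovered reads these levels stand for 149 reads over the 6 phr2 libraries and 9 reads over the 6 WT libraries. SWEET3B passed the filter on low levels through its phr2 libraries alone, so it had to differ to be among the members. The difference was 2.05 over both media (SE 0.37, limma adjusted p = 0.0410) and 2.42 without the library labelled phr2 no Pi replicate 3 (limma adjusted p = 0.000358). Its difference was 1.83 in control medium (limma adjusted p = 0.103, or 0.0133 without that library) and 2.28 without Pi (limma adjusted p = 0.541). Without that library it was 3.01 without Pi (SE 0.36, limma adjusted p = 0.00778).

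**Figure D2:**
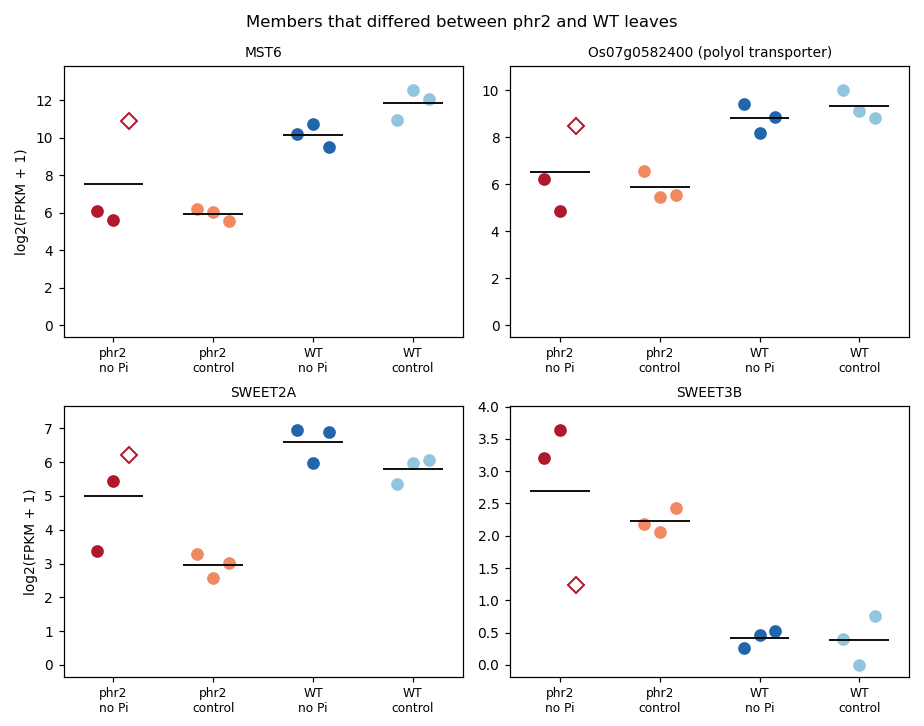
Level of the 4 members that differed between the genotypes over both media, as log2(FPKM + 1), in each library of the 4 groups; lines are group means and the open diamond is the library labelled phr2 no Pi replicate 3. For MST6 and Os07g0582400 that library lies near the WT points, and for SWEET3B it lies between the other phr2 libraries and the WT libraries.

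Without the library labelled phr2 no Pi replicate 3, 7 members passed over both media, beside 6.83% of all genes: 1 was higher, beside 1.09%, and 6 were lower, beside 5.74%. Those added were SUT4, Os04g0679000 and Os09g0416200. SUT4, a sucrose and proton symporter, had 7.56, 5.46 and 13.2 FPKM in phr2 control, against 19.1, 18.2 and 43.4 FPKM in WT control, and 9.48, 9.06 and 23.4 FPKM in phr2 no Pi, against 20.9, 18.8 and 20.4 FPKM in WT no Pi. Its difference was −1.26 (limma adjusted p = 0.0333), and −1.05 with that library (limma adjusted p = 0.128). Os04g0679000, similar to polyol transporter 4 of Arabidopsis, averaged 0.300 ± 0.204 FPKM in the 5 phr2 libraries and 3.16 ± 1.64 FPKM in the 6 WT libraries (SD), with a difference of −1.55 (limma adjusted p = 0.0227). It reached 1 FPKM in 5 WT libraries and 1 phr2 library, that of phr2 no Pi replicate 3, so like SWEET3B it was kept through the genotype where it is high. Os09g0416200, similar to sugar transport protein 7 of Arabidopsis, averaged 34.1 ± 11.1 FPKM in the 5 phr2 libraries and 74.7 ± 31.3 FPKM in the 6 WT libraries (SD), with a difference of −1.09 (limma adjusted p = 0.0418). In these 5 phr2 libraries 6 of 63 members did not overlap with the 6 WT libraries, beside 5.34% of all genes: SWEET3B was above, beside 1.23% of all genes, and 5 were below, beside 4.11%, namely MST6, Os07g0582400, SUT4, Os04g0679000 and Os09g0416200. Of these 6, SWEET3B and Os04g0679000 had to differ to be kept. In control medium 4 members passed without that library, beside 3.40% of all genes: SWEET3B was higher, beside 0.340%, and MST6, Os07g0582400 and SWEET2A were lower, beside 3.06%. In no Pi medium 3 passed, beside 1.19% of all genes: SWEET3B was higher, beside 0.181%, and MST6 and Os07g0582400 were lower, beside 1.01%.

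MST4, a hexose importer, had 120, 32.4 and 679 FPKM in phr2 control, against 453, 638 and 228 FPKM in WT control. Without Pi it had 86.6, 36.8 and 228 FPKM in phr2, against 990, 201 and 459 FPKM in WT. Its phr2 control libraries lay on both sides of the WT range, and its difference over both media was −1.92 (SE 0.70, limma adjusted p = 0.186). Without Pi the libraries labelled phr2 replicates 1 and 2 were below all WT libraries, and replicate 3 was within the WT range. SWEET1B, of the group whose Arabidopsis member carries glucose, had 84.5, 86.0 and 52.1 FPKM in phr2 control and 450, 63.4 and 23.8 FPKM in WT control. Without Pi it had 87.8, 108 and 68.5 FPKM in phr2 and 102, 45.2 and 136 FPKM in WT. The genotypes overlapped in both media, and the high WT control value is that of replicate 1 alone.

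By role, the members as a group showed no common direction between the genotypes. Over both media 33 of 63 members had a difference below 0, and their median was −0.04, beside 0.02 over all genes, or 26 and a median of 0.08 beside 0.17 with every library scaled to the same FPKM sum. The SUT genes had 2 of 3 below 0 with a median of −0.13, the SWEET genes 7 of 13 with a median of −0.04, the hexose importers 13 of 22 with a median of −0.08, the polyol transporters 8 of 10 with a median of −0.57 and the ERD6-like genes 2 of 5 with a median of 0.01. Both tonoplast carriers and all 3 plastid carriers were above 0, with medians of 0.60 and 0.27, as they were under each of the 3 other scalings, and none of them passed. Without the library labelled phr2 no Pi replicate 3, 34 of 63 members were below 0, with a median of −0.08, beside 0.03 over all genes. The polyol transporters then had 7 of 10 below 0 and a median of −0.55, and the ERD6-like genes 4 of 5 and a median of −0.14. In control medium 14 of 63 members did not overlap between the genotypes, beside 21.0% of all genes: 3 were higher, beside 9.18%, and 11 lower, beside 11.8%. These 11 include SUT1, a plasma membrane sucrose importer of the phloem, with 8.13, 6.50 and 10.998 FPKM in phr2 control, against 16.5, 12.9 and 26.0 FPKM in WT control. Without Pi the count was 6 members, beside 11.4% of all genes: SWEET3B, SWEET1A and SWEET14 were higher, beside 5.96%, and Os04g0529800, Os10g0360100 and Os10g0558850 were lower, beside 5.46%. SWEET3B was kept through phr2 libraries alone, and Os04g0529800 and Os10g0360100 each reached 1 FPKM in only 2 phr2 libraries. With the remaining 2 phr2 no Pi libraries, where fewer values make overlap rarer, it was 27 members, beside 33.3% of all genes: 12 were higher, beside 15.2%, and 15 lower, beside 18.1%.

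**Figure D3:**
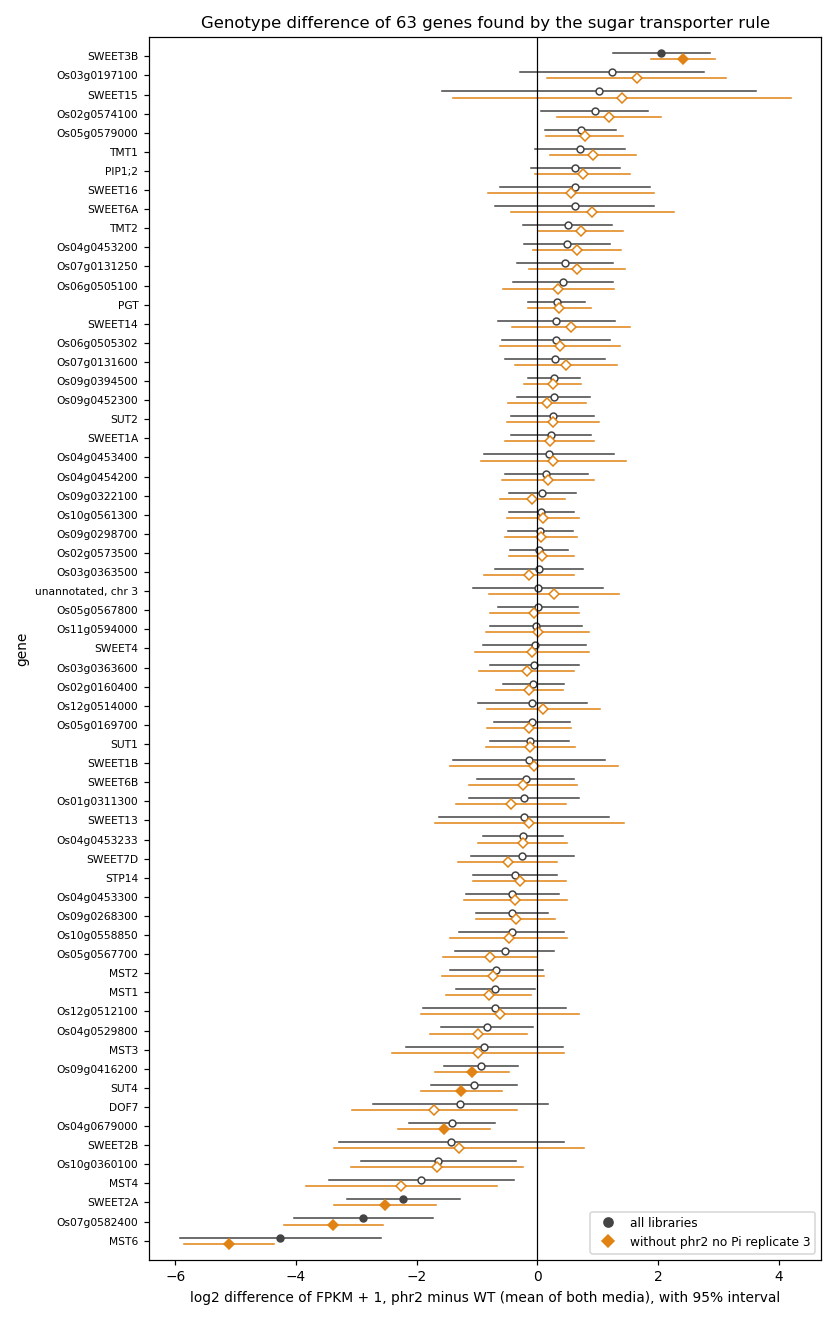
Difference between phr2 and WT over both media for each of the 63 members, as the log2 difference of FPKM + 1 with its 95% interval, from all libraries (grey circles) and without the library labelled phr2 no Pi replicate 3 (orange diamonds); filled symbols passed at a limma adjusted p under 0.05. MST6, Os07g0582400 and SWEET2A stand at the low end and SWEET3B at the high end in both fits, and most other intervals include 0.

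The genotype calls lie close to the threshold. Leaving out 1 library gave 0 to 7 members over both media: 0 without phr2 no Pi replicates 1 or 2, any phr2 control replicate, WT no Pi replicates 1 or 3, or WT control replicates 2 or 3. It gave 5 without replicate 2 of WT no Pi, beside 2.12% of all genes, 6 without WT control replicate 1, beside 3.53%, and 7 without phr2 no Pi replicate 3, beside the 6.83% given above. The call of each of these 4 members over both media was lost in 14 of 20 alternatives, with limma adjusted p-values of 1.81e-05 to 0.127. The sign of each difference was the same in all 20 alternatives. These members were picked because they passed, and SWEET3B had to differ to be kept, which makes a change of sign unlikely.

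The comparison of WT no Pi with WT control asked which members respond to Pi withdrawal in the wild type. A single member passed: Os10g0360100 was higher in WT no Pi, beside 2.36% of all genes passing in either direction, 0.958% higher and 1.40% lower. At an unadjusted p under 0.05 there were 19 members, beside 25.0% of all genes. Os10g0360100 encodes a sugar transporter similar to polyol transporter 6 of Arabidopsis (chromosome 10, 11053048 to 11057745, minus strand). It had 86.8, 14.0 and 4.53 FPKM in WT no Pi, against 0.167, 1.42 and 0.241 FPKM in WT control. In recovered reads this was 1671, 273 and 80 reads, against 2, 20 and 4 reads. It reached 1 FPKM in all 3 WT no Pi libraries but in 1 WT control library and 2 phr2 libraries, so it was kept mainly through the group where it is high. All WT no Pi libraries were above all WT control libraries, with a wide spread among them. The phr2 libraries were all low, with 1.17, 0.0559 and 0.704 FPKM in phr2 no Pi, against 0.606, 0.176 and 2.79 FPKM in phr2 control. The change was 3.67 in WT (SE 0.83, limma adjusted p = 0.0456) and −0.29 in phr2 (limma adjusted p = 0.998). The difference of these responses was −3.96 (SE 1.17, limma adjusted p = 0.485), or −4.02 (limma adjusted p = 0.627) without the library labelled phr2 no Pi replicate 3, and did not pass. Between the genotypes without Pi the difference was −3.62 (SE 0.83, limma adjusted p = 0.541). The WT call was lost in 18 of 20 alternatives, with limma adjusted p-values from 0.0316 to 0.172 and the same sign in each; without the library labelled phr2 no Pi replicate 3 it was 0.0547, beside 1.61% of all genes passing.

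Beyond this single call, 19 of 63 members did not overlap between the media in WT, beside 24.8% of all genes: 5 were higher, beside 11.9%, and 14 lower, beside 12.9%. The members had a median of −0.23, beside −0.01 over all genes. Scaling each library to the same FPKM sum moved the median of all genes to 0.41 and that of the members to 0.17, so the members lay 0.22 below all genes as deposited and 0.24 below after this scaling (log2). Members with a change below 0 numbered 37 as deposited and 24 after it. By role these were 16 of 22 hexose importers (12 after it), 8 of 13 SWEET genes (5), 6 of 10 polyol transporters (4), 2 of 3 SUT genes (1), 2 of 5 ERD6-like genes (0), both tonoplast carriers (2) and none of the 3 plastid carriers (0). None of the 19 changed sign under this scaling, quantile normalization or a fit to recovered reads. They were picked for groups that did not overlap, which makes a change of sign unlikely. Of the 14 lower ones, Os04g0453233 and Os04g0453300 reached 1 FPKM in control libraries alone. Of the 5 higher ones, Os09g0322100 reached it in no WT control library. Leaf marker genes moved with this comparison: their list summed to 29705 to 40772 FPKM in WT no Pi and 72896 to 124118 FPKM in WT control, with 1 gene higher and 3 lower of 18 kept, beside the 0.958% higher and 1.40% lower of all genes. Without the library labelled phr2 no Pi replicate 3, 1 was higher and 1 lower. All genes together summed to 1162552 to 1457875 FPKM in WT no Pi and 1410691 to 2292700 FPKM in WT control. The part of the leaf list in the members' values was not tested.

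The lower side held hexose importers, SWEET genes and polyol transporters. Os01g0311300, similar to sorbitol transporters, had 0.815, 3.54 and 0 FPKM in WT no Pi, against 5.96, 16.3 and 9.07 FPKM in WT control (−2.40, SE 0.59, limma adjusted p = 0.0552). Os12g0514000, also similar to sorbitol transporters, had 59.1, 37.3 and 33.0 FPKM in WT no Pi, against 365, 157 and 62.9 FPKM in WT control (−1.85, limma adjusted p = 0.0954). In both genes the WT control libraries were all above the WT no Pi libraries. SWEET1A, of the same group as SWEET1B, had 70.3, 70.5 and 23.0 FPKM in WT no Pi, against 121, 162 and 120 FPKM in WT control (−1.43, limma adjusted p = 0.0865). SWEET4, a hexose carrier known in rice from seed filling, had 43.1, 40.7 and 24.8 FPKM in WT no Pi, against 167, 90.2 and 96.1 FPKM in WT control (−1.65, limma adjusted p = 0.106). TMT2, a carrier that loads monosaccharides into the vacuole, had 1.43, 3.67 and 1.499 FPKM in WT no Pi, against 5.05, 10.4 and 11.98 FPKM in WT control (−1.66, limma adjusted p = 0.0806). In these 3 genes too every WT no Pi library was below every WT control library. MST6 also belongs here: its 3 WT no Pi libraries were all below its 3 WT control libraries, with a change of −1.69 (SE 1.08, limma adjusted p = 0.349), or an SE of 0.45 and a limma adjusted p of 0.0718 without the library labelled phr2 no Pi replicate 3.

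A run of neighbouring genes similar to MST1, a rice hexose importer, gave several of these values. On chromosome 4, 9 matched genes lie between 22594108 and 22633275, each less than 30000 bases from the next, and 5 of them were kept: MST1, Os04g0453200, Os04g0453233, Os04g0453300 and Os04g0453400. All 5 had a change below 0 in WT, as deposited and under each of the 3 other scalings, and all but MST1 had groups that did not overlap. Os04g0453233 and Os04g0453300 reached 1 FPKM in control libraries alone (3 and 4 of 6) and in none without Pi, so they had to be lower without Pi to be kept, and nothing is read from their direction. Os04g0453400 had 3.51, 3.04 and 1.12 FPKM in WT no Pi, against 52.5, 10.3 and 4.20 FPKM in WT control (−2.12, SE 0.70, limma adjusted p = 0.104). Os04g0453200 had 8.73, 5.55 and 2.83 FPKM in WT no Pi, against 24.6, 14.8 and 11.5 FPKM in WT control (−1.46, limma adjusted p = 0.0970). Os04g0453233 overlaps Os04g0453300 on the other strand, and the use of strand in counting is not stated, so the reads of this pair, and those of similar copies along the run, may be shared. Another MST1-like gene, Os02g0574100 on chromosome 2 (22013289 to 22017622), had 5.78, 8.001 and 1.44 FPKM in WT no Pi, against 26.0, 33.5 and 14.4 FPKM in WT control (−2.20, SE 0.58, limma adjusted p = 0.0653). In phr2 it had 31.7, 16.1 and 7.56 FPKM in phr2 no Pi, against 21.9, 34.9 and 27.3 FPKM in phr2 control. The groups overlapped there, and the lowest value is that of the library labelled phr2 no Pi replicate 3.

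On the higher side stood 2 neighbouring genes of the 5 ERD6-like members, a family of which an Arabidopsis relative moves glucose out of the vacuole. Another 2 of the 5 had a change below 0, and the median of the 5 was 0.18. Os05g0567800 had 36.0, 37.2 and 27.9 FPKM in WT no Pi, against 8.27, 11.68 and 26.0 FPKM in WT control (1.23, SE 0.43, limma adjusted p = 0.117). In phr2 it had 21.9, 38.6 and 38.1 FPKM without Pi, against 22.4, 12.8 and 10.9 FPKM in control medium (1.07, limma adjusted p = 0.998, or 0.94 without the library labelled phr2 no Pi replicate 3). Its neighbour Os05g0567700 had 13.8, 14.9 and 15.999 FPKM in WT no Pi and 4.22, 3.22 and 13.2 FPKM in WT control. Both genes were separated between the media in WT, with WT control replicate 3 the highest control library of each. PIP1;2, a plasma membrane aquaporin, had 18.9, 21.2 and 15.5 FPKM in WT no Pi, against 8.36, 3.49 and 8.77 FPKM in WT control. The hexose importer Os09g0322100 also stood apart, but it overlaps STP14 on the other strand.

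**Figure D4:**
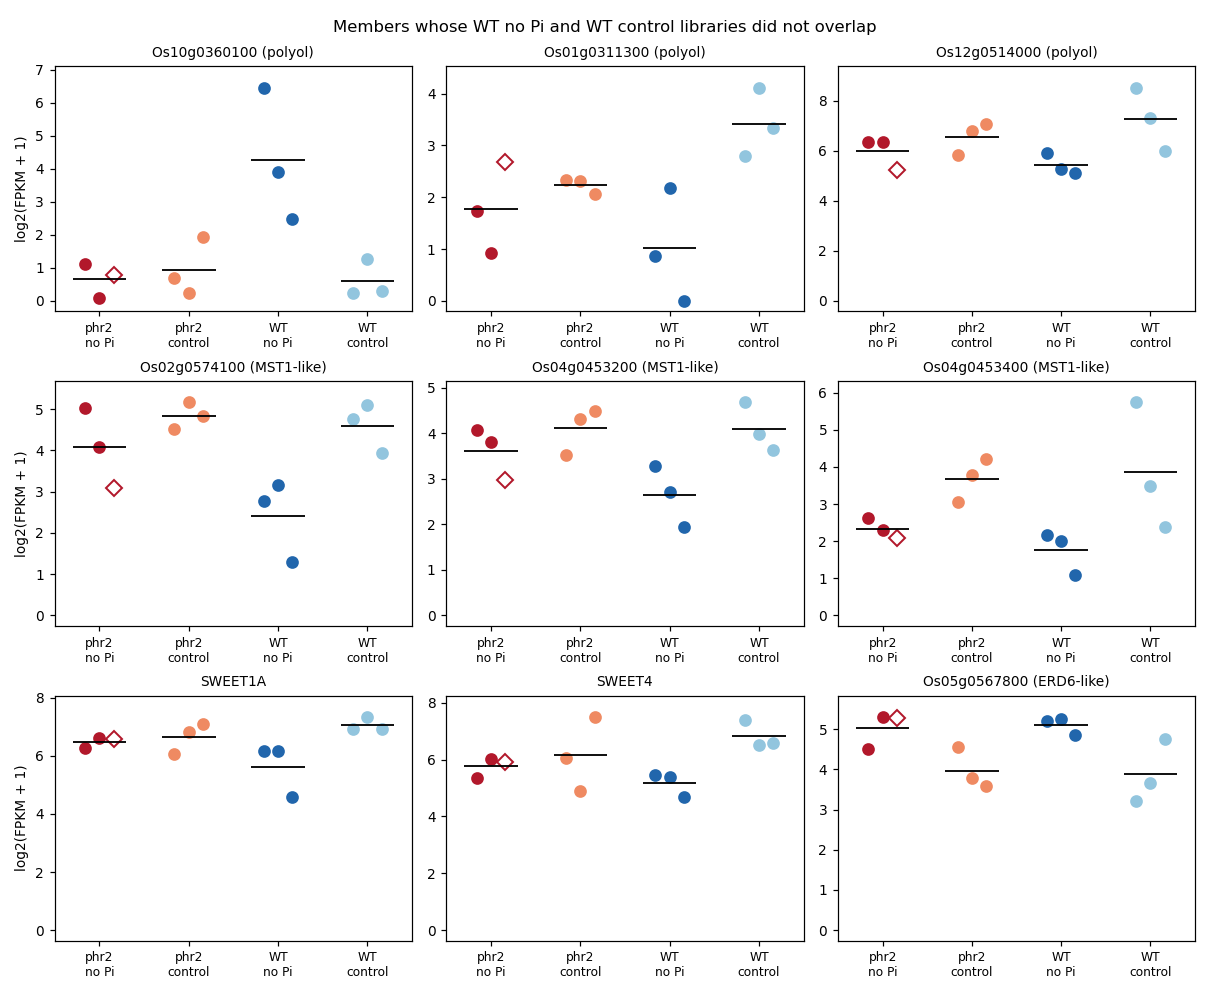
Level of 9 members whose WT no Pi and WT control libraries did not overlap, as log2(FPKM + 1), in each library of the 4 groups; lines are group means and the open diamond is the library labelled phr2 no Pi replicate 3. Os10g0360100 is highest in the 3 WT no Pi libraries, and the sorbitol transporter-like, MST1-like and SWEET genes lie lower in WT no Pi than in WT control.

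The count of WT calls turned on single libraries. Without WT control replicate 3, 11 members passed, beside 13.9% of all genes: 5 were higher, beside 6.84%, and 6 lower, beside 7.10%. The higher ones were Os10g0360100, Os05g0567700, Os05g0567800, Os09g0322100 and the SWEETIE-like gene Os06g0505100, and the lower ones Os01g0311300, Os12g0514000, Os02g0574100, Os04g0453233, Os04g0453300 and Os04g0453400. Of the 6 lower ones, Os04g0453233 and Os04g0453300 were kept through control libraries alone, and of the 5 higher ones Os09g0322100 reached 1 FPKM in no WT control library. Without the library of WT no Pi replicate 2 a single member passed, Os01g0311300, and without any 1 of the other 10 libraries none did.

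In phr2, Pi withdrawal gave no member and no gene that passed (limma, 0%), with 6 members and 3.91% of all genes at an unadjusted p under 0.05. Here 6 of 63 members did not overlap between the media, beside 9.75% of all genes: SWEET2A, SUT1, MST2 and Os04g0679000 were higher, beside 4.47%, and Os04g0453400 and Os10g0558850 were lower, beside 5.28%. With 2 phr2 no Pi libraries, without that labelled replicate 3, it was 17 members, beside 20.1% of all genes: 10 were higher, beside 9.60%, and 7 lower, beside 10.5%. Os04g0679000, higher in both counts, stood near the floor, with 6, 7 and 23 recovered reads in phr2 no Pi, against 6, 1 and 1 in phr2 control. Of its phr2 libraries, only that labelled phr2 no Pi replicate 3 reached 1 FPKM. The median of the members was 0.01, beside 0.02 over all genes, or −0.09 beside 0.01 without that library. SWEET2A, given above, had a change of 2.05 (SE 0.60, limma adjusted p = 0.998), or 1.45 without the library labelled phr2 no Pi replicate 3. SWEET14, a sucrose carrier that leaf blight bacteria are known to switch on in rice, had 3.47, 10.8 and 1.68 FPKM in phr2 no Pi, against 1.69, 0 and 0 FPKM in phr2 control (1.91, SE 0.63, limma adjusted p = 0.998, or 2.39 without that library). In WT it had 1.46, 1.24 and 0.661 FPKM without Pi and 0, 2.25 and 2.41 FPKM in control medium. SUT1 had 12.1, 24.8 and 16.3 FPKM in phr2 no Pi, against 8.13, 6.50 and 10.998 FPKM in phr2 control (0.94, limma adjusted p = 0.998, or 0.97 without it). MST6, with 67.8 and 46.9 FPKM in phr2 no Pi replicates 1 and 2, stayed within or near its phr2 control range of 46.4 to 72.9 FPKM. Its change in phr2 was 1.60 with the third library and −0.09 without it (SE 0.51).

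The responses of the genotypes were not shown to differ for any member. The interaction gave 0 calls among the members and among all genes (limma), with 8 members and 8.84% of all genes at an unadjusted p under 0.05. Of the 63 members, 39 had a more positive response in phr2 than in WT, with a median of 0.41 beside 0.02 over all genes. Scaling to the same FPKM sum gave 32 and a median of 0.02 beside −0.32. The median of the members was thus above that of all genes in both. The smallest p-values belonged to Os10g0360100, SUT1 (1.74, SE 0.61, limma adjusted p = 0.519) and TMT2 (1.94, SE 0.68, limma adjusted p = 0.519). Without the library labelled phr2 no Pi replicate 3, SUT1 had 1.77 (limma adjusted p = 0.627), TMT2 had 2.37 (limma adjusted p = 0.615), and 36 members were more positive in phr2, with a median of 0.36 beside 0.01. TMT2 had 12.8, 8.47 and 3.62 FPKM in phr2 no Pi, against 6.14, 4.37 and 7.85 FPKM in phr2 control, and its WT values are given above. SUT1 had 16.9, 6.12 and 8.84 FPKM in WT no Pi, against 16.5, 12.9 and 26.0 FPKM in WT control.

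Over both genotypes no member passed for Pi supply (limma), beside 0.0530% of all genes, while 17 members and 20.2% of all genes had an unadjusted p under 0.05. The smallest p-values were those of Os05g0567800 (1.15, SE 0.31, limma adjusted p = 0.103), Os02g0574100 (−1.48, limma adjusted p = 0.109) and Os04g0453400 (−1.73, limma adjusted p = 0.115). Os04g0453400 was lower without Pi in both genotypes by its ranges, with 5.22, 3.94 and 3.23 FPKM in phr2 no Pi and 7.34, 12.7 and 17.6 FPKM in phr2 control. Without WT control replicate 3 these 3 genes and Os12g0514000 passed, beside 7.69% of all genes, with Os05g0567800 higher, beside 3.34%, and the others lower, beside 4.35%.

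Enzymes that act on the carried sugars were described from their annotation. The list holds 41 kept genes matched by words for invertases, sucrose synthases, sucrose phosphate synthases, sucrose phosphatases, hexokinases and fructokinases, and these words also took in genes described as something else, such as the poly(A) polymerase-like Os01g0703000. In the WT response 2 passed, both lower, beside the 1.40% of all genes that were lower, with a median of −0.42 over the list, and 1 passed without the library labelled phr2 no Pi replicate 3. They are the sucrose phosphate synthase genes Os11g0236200 (−1.69, SE 0.33, limma adjusted p = 0.0365) and Os11g0236100 (−2.17, SE 0.46, limma adjusted p = 0.0442), which make the phosphorylated precursor of sucrose. Over both media 1 was lower in phr2, beside 1.17% of all genes, the neutral/alkaline invertase Os01g0332100, an enzyme that splits sucrose (−2.32, SE 0.44, limma adjusted p = 0.0431). The summed FPKM of the list was 985 to 1434 in phr2 no Pi, 1096 to 1123 in phr2 control, 1311 to 1396 in WT no Pi and 1837 to 2164 in WT control. The summed FPKM of all genes also differed between libraries, as given above. None of the 17 kept plastid sugar phosphate translocators, which exchange triose phosphates and the like for Pi, passed in any of the 7 comparisons. Without the library labelled phr2 no Pi replicate 3, 5 of the 41 genes and 2 of the 17 translocators were lower in phr2 over both media, beside 5.74% of all genes.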

How the data were processed

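RNA-seq of leaves gave 1 library for each of 12 samples, in 4 groups of 3. The authors deposited 1 table of FPKM values per transcript with its annotation (per the file headers). Per the submitters' processing notes the tools were HISAT2 2.0, StringTie 1.3.0 and Bowtie 0.12.2, and the build named is mm8, a mouse build, whereas the table holds rice RAP identifiers. Which rice assembly was used, and whether reads were counted by strand, is not given in the sources used here.

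FPKM values of the transcripts of a gene were summed. Values were whole multiples of 1 read's worth in 100% of cases at a tolerance of 0.01, which gave the reads per library. Genes with an FPKM of 1 or more in 3 or more libraries were kept. Means of log2(FPKM + 1) for the 4 groups were fitted over all 12 libraries with limma 3.58.1 in R 4.3.3 (moderated by eBayes with a trend, 8 residual and 3.78 prior degrees of freedom), and p-values were adjusted by the Benjamini-Hochberg method over 22648 genes, with calls at an adjusted p under 0.05. The fit was tested first on simulated data with known fold changes. Summaries and figures were made in Python 3.11.15 with pandas 2.3.3 and matplotlib 3.10.9.

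Comparisons were phr2 with WT in each medium and over both, no Pi with control in each genotype and over both, and their interaction. Values in every library were given for the members that passed, the 3 with the smallest p in each comparison and the 5 of highest mean level, and for MST6. Other members were named for their role or place after their values were seen. The members and lists were chosen with earlier results of these data known. Alternatives were another pseudocount, no filter, rescaling, quantile normalization, a voom fit to recovered reads, a replicate block, genes with 1 transcript, a fit to the groups compared alone, and leaving out libraries. No column of per-sample values was left unmapped. Promoter and protein sequences were not used here.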

Additional observations from a re-analysis of the deposited data

How the results depend on the processing

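Calls among the members lay near the threshold (limma adjusted p under 0.05). None of the 22 results on named members reversed in any alternative run. These results were picked for their small p-values, which makes a reversal unlikely, and other members did change direction. In the WT response 37 of 63 members were below 0 as deposited and 24 after rescaling. For the WT response, where 1 member and 534 of all genes were called, the count was 0 with a pseudocount of 0.1 (472 genes), no filter (86), quantile normalization (241), voom on recovered reads (113), only genes with 1 transcript (367; Os10g0360100 has 2 transcripts and was not tested there), the 2 groups fitted alone (0), or both phr2 no Pi replicate 3 and WT control replicate 1 left out (114), and 2 with each library rescaled to the same FPKM sum (1094). For phr2 against WT in control medium, where 1 member and 151 genes were called, it was 0 with no filter (6 genes), rescaling (0), quantile normalization (5) or voom (0), 3 with the 2 groups alone (274) and 6 without both libraries (1178). Without Pi, where 0 were called, it was 4 without both libraries (641 genes). Over both media, where 4 members and 277 genes were called, it was 0 with no filter (0 genes), rescaling (0), quantile normalization (1) or voom (0) and 8 without both libraries (1974). Leaving out 1 library at a time gave 0 to 11 members for the WT response, 0 to 4 for the genotypes in control medium, 0 to 3 without Pi, 0 to 7 over both media, 0 to 4 for Pi supply over both genotypes, and 0 for the phr2 response and the interaction. The cause was not tested. Rescaling moved the median of all genes from near 0 to 0.41 in the WT response, 0.33 between the genotypes in control medium and 0.26 for Pi supply over both genotypes.

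Of 18 pairs of same-numbered libraries between groups, 5 had deviations from their group means that correlated above 0.1 (range −0.43 to 0.30). These values were not set against pairs of unlike number, so they cannot show whether same-numbered libraries were handled together. With the replicate number as a block, 0 members were called in each of the 7 comparisons. Precision is limited by 3 libraries a group and, for the 33 members with a median under 10 FPKM, by few reads.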

Other observations

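SWEET15, a SWEET known in rice from seed filling, was carried by a single library. It had 0.0801, 0 and 194 FPKM in phr2 control, against 0 FPKM in each WT control library, and 2.28, 6.11 and 0 FPKM in phr2 no Pi, against 11.3, 4.72 and 0 FPKM in WT no Pi. In recovered reads, phr2 control replicate 3 held 1842 reads and the other 2 libraries of its group held 1 and 0.

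Some members stood at the edge of detection in one genotype. The filter was reached with fewer than 3 WT libraries at 1 FPKM or more by 6 members and with fewer than 3 such phr2 libraries by 9 members, and 8 members were listed at 0 in at least 1 library. SWEET3B is among the 6, and Os04g0679000, Os04g0529800 and Os10g0360100 are among the 9.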
